A study of Mus musculus with 6 samples.

Results

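Genes of the endothelin system and of vascular tone were examined in subcutaneous mouse tumors. The set held 10 genes of the 33965 in the expression table: the ligand Edn1, its receptors Ednra and Ednrb, the nitric oxide synthase Nos3, the angiotensin genes Ace and Agtr1a, the prostacyclin genes Ptgis and Ptgir, and the endothelial surface and storage proteins Thbd and Vwf. The genes were picked by name, and the choice was made with the measured differences between GB2-treated and PBS-treated tumors already known. The values of that contrast are therefore given for these genes as a description, and no test of it is used to support anything about them.

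The tumors were grown from cells labelled MC38, a mouse colon carcinoma line, under the skin of C57BL/6 mice. The animals were female and 6 weeks old when obtained. One group of 3 tumors received PBS, the vehicle, and the other group of 3 received GB2, an intravenous prodrug in which artesunate and MSA-2, an agonist of STING, are held together by a disulfide bond. STING is a sensor pathway of innate immune cells that drives interferon production. Both groups carried the same labelled tumor line and no genetic change in the host was named. The dose and time for the sequenced tumors were not given separately from those of the other experiments. Whole tumors were sequenced as poly(A) RNA, so in every result fewer cells of a type and less RNA per cell cannot be told apart. The estimated counts summed to between 64764405 and 69878156 per PBS tumor and between 81210553 and 83690056 per GB2 tumor. Each GB2 library was the larger, and its part in the results was not tested beyond scaling to library size. The labels do not say that each tumor came from a different mouse, so the spread is that between these samples.

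The lineage genes of the tumors went against the colon carcinoma label in all 6 tumors. In CPM, the counts scaled to library size, the pigment enzyme Dct ran from 4097 to 8046, Tyrp1 from 2421 to 5082, the melanosome protein Pmel from 1732 to 4417, and Sox10, a transcription factor of the neural crest, from 331 to 765. By mean FPKM, a level per transcript length, Tyrp1 ranked 16, Pmel 19 and Dct 36 among all genes. Genes that define intestinal epithelium were at or near 0, with Epcam at 0.170 to 1.01 CPM, Krt8 at 0 to 2.41, Cdx1 at 0 to 0.0568 and Cdx2 at 0 to 0.0424. The highest of the 12 epithelial genes read were Lgals4 at 5.39 to 10.03 CPM and Vil1 at 1.51 to 5.32 CPM. The values of the 12 melanocyte lineage genes overlapped between PBS and GB2 tumors for every gene. Among the 12 epithelial genes Epcam and Krt20 had every GB2 tumor above every PBS tumor, as did 8.61% of all genes tested. The other epithelial genes overlapped. Krt20 was near 0, at 0, 0 and 0.396 CPM with PBS and 0.441, 0.541 and 1.27 CPM with GB2. These lineage genes were picked after the values had been seen. The study also grew subcutaneous tumors of B16F10, a mouse melanoma line, in the same mouse strain, and the origin of the sequenced tumors was not tested. They are described here only as tumors labelled MC38, and since all 6 share the pattern no comparison without such libraries could be made.

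**Figure D1:**
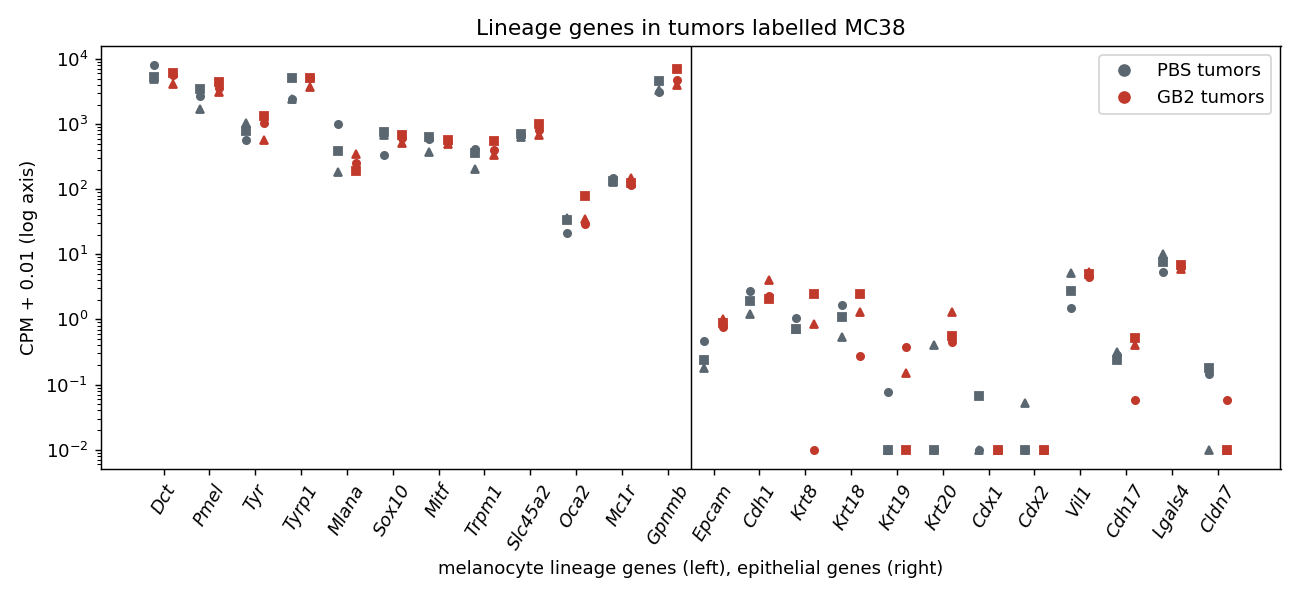
CPM plus 0.01 on a log axis for melanocyte lineage genes (left of the line) and epithelial genes (right), with 1 point per tumor, grey for PBS and red for GB2. Dct sits between 4097 and 8046 CPM in the 6 tumors while Epcam sits between 0.170 and 1.01.

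Vessel diameter is set by signals that pass between endothelial cells and the smooth muscle around them. Endothelin-1 and angiotensin II contract smooth muscle through their G protein-coupled receptors, while nitric oxide made by endothelial nitric oxide synthase and prostacyclin relax it. Thrombomodulin and von Willebrand factor belong to the same endothelial surface but act on clotting, the first by restraining thrombin and the second by tethering platelets.

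The start regions of the endothelin ligand and its receptors are shown because these 3 genes form 1 signaling unit and were all at higher values in the GB2 tumors. Each is the 250 bases before the RefSeq start, from the GRCm38.p6 assembly, written 5′ to 3′ on the strand of the gene. Edn1 lies at chr13:42301226-42301475 on the plus strand, Ednra at chr8:77724453-77724702 on the minus strand and Ednrb at chr14:103843702-103843951 on the minus strand. Capitals mark GGAA, the core bound by ETS factors that many endothelial genes share, and CACCC, the core bound by KLF factors, on either strand, so that TTCC and GGGTG are the same letters read on the other strand. Neighbouring matches can touch, as in the run GGAACACCC of Ednrb.
Edn1: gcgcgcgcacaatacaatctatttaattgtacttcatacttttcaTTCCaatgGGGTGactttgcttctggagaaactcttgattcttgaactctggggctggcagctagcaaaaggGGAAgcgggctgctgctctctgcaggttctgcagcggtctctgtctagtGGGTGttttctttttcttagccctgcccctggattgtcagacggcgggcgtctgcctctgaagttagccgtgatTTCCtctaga
Ednra: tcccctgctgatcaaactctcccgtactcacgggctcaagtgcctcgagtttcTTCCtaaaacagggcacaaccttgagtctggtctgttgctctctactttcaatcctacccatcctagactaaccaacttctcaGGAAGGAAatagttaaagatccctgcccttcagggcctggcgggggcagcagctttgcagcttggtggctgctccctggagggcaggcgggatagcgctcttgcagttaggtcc
Ednrb: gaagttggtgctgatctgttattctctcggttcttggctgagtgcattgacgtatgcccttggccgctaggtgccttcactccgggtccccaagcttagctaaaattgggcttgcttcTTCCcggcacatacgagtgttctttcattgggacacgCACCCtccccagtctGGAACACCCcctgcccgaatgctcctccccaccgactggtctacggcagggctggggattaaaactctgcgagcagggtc

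The Edn1 window held 3 GGAA and 2 CACCC matches, with GGAA nearest the start at 10 bases before it. The Ednra window held 3 GGAA matches, of which 2 lay side by side, and no CACCC. The Ednrb window held 2 of each. These letters are common: among 32851 promoters of the same length, 93.4% held GGAA and 52% held CACCC. RefSeq start regions were matched for 5 of the 10 genes, the others being Ace and Ptgir. The first of the Ace start regions and that of Ptgir also held GGGCGG, the SP1 core, with 4 and 2 matches, against 32.7% of all promoters with at least 1. None of the 6 regions of the 5 genes held AGATAA (the GATA core; 9.99% of all promoters), TGACTCA (AP-1; 4.46%) or ACGTG (the hypoxia response core; 16.6%). A match is a run of letters and not a shown binding site. Nos3, Agtr1a, Ptgis, Thbd and Vwf had no entry.

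Across the 10 genes, 8 had higher and 2 lower CPM means in the GB2 tumors, and the median log2 fold change was 1.38, against -0.02 over all 19602 genes tested. The lowest GB2 tumor exceeded the highest PBS tumor in CPM for 8 of the 10 genes, as it did for 8.61% of all genes tested, and for 6.68% the order was the opposite. In the fit across all genes with the edgeR quasi-likelihood test, 0 genes in the table (0%) passed an adjusted p of 0.05 with a 2-fold change, while 1360 genes (6.94%) had an unadjusted p under 0.05. At an unadjusted p of 0.05 with a 2-fold change, 7 of the 10 genes were on the higher side and 0 on the lower, against 3.74% and 0.918% of all genes. DESeq2 called 373 genes, or 1.65% of those with an adjusted p, and among them were Ednra, Ednrb, Nos3, Ace and Thbd. Without 1 tumor at a time the 7 became 5 to 7, with Edn1 lost without any 1 PBS tumor, GB2 tumor 1 or GB2 tumor 3, and Nos3 lost without PBS tumor 2 or GB2 tumor 1. Since this contrast chose the genes, nothing is read from these counts.

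**Figure D2:**
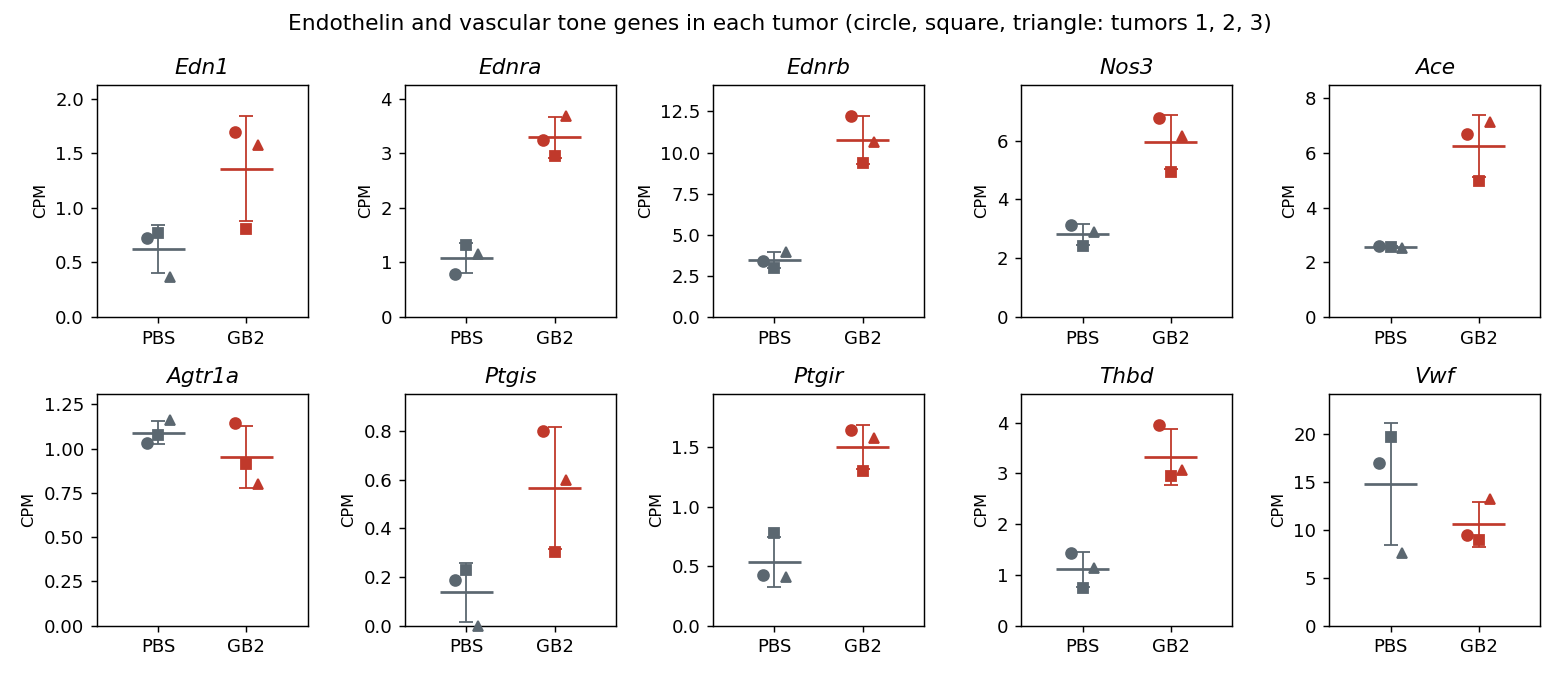
CPM of each gene in each tumor, grey for PBS and red for GB2, with circle, square and triangle for tumors 1, 2 and 3, a horizontal line at the mean and bars of ± 1 SD (n = 3); each vertical axis starts at 0 and has its own scale. In 8 panels every red point is above every grey point, while the points of Agtr1a and Vwf overlap.

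The ligand was sparse and its groups nearly touched. Edn1 (ENSMUSG00000021367, chr13:42454952-42461466 in the positions of the table, which are not those of the start regions above) encodes the precursor of endothelin-1, the strongest of the peptide vasoconstrictors made by endothelium. In CPM it was at 0.727, 0.766 and 0.368 with PBS and at 1.69, 0.806 and 1.58 with GB2, from 43, 54, 26, 142, 67 and 134 estimated counts. GB2 tumors 1 and 3 were clearly above the PBS tumors, but GB2 tumor 2 exceeded PBS tumor 2 only by 0.806 against 0.766. About 4 estimated counts stood for 1 read pair, so that these neighbours rested on 17 and 14 read pairs. The log2 fold change was 1.13 ± 0.47 (SE), a 2.19-fold difference, and without 1 tumor at a time it ran from 0.87 to 1.40.

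Both endothelin receptors had groups that were apart. Ednra (ENSMUSG00000031616, chr8:78389660-78451093), the receptor on smooth muscle and fibroblasts that mediates contraction, was at 0.778, 1.32 and 1.15 CPM with PBS and at 3.24, 2.95 and 3.68 CPM with GB2. The lowest GB2 tumor was above the highest PBS tumor by a wide margin. The log2 fold change was 1.60 ± 0.33, or 3.04-fold. Ednrb (ENSMUSG00000022122, chr14:104052061-104081838), found on endothelial cells, where it prompts nitric oxide release and clears endothelin, was at 3.38, 2.99 and 3.98 CPM with PBS and at 12.2, 9.37 and 10.7 CPM with GB2. The groups were far apart and the spread within each was small. Its log2 fold change of 1.64 ± 0.25 corresponded to 3.12-fold and ran from 1.54 to 1.76 without 1 tumor at a time.

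Ednrb is also a receptor of melanoblasts and melanocytes, whose genes were abundant in these tumors. The summed CPM of the 7 melanocyte and Schwann cell markers ran from 8564 to 12660 in the PBS tumors and from 8646 to 12630 in the GB2 tumors, and these ranges overlapped. By unadjusted p under 0.05, 0 of the 7 genes passed, where 6.94% of all genes tested did. The genes with the smallest p were Mlana, Pmel and Tyr, with log2 fold changes of -1.01 ± 0.57, 0.49 ± 0.29 and 0.29 ± 0.35. Which cells carried the Ednrb RNA was not tested.

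The nitric oxide synthase of endothelium was also at higher values with GB2. Nos3 (ENSMUSG00000028978, chr5:24569808-24589472), which makes nitric oxide in endothelial cells, was at 3.13, 2.43 and 2.90 CPM with PBS and at 6.77, 4.95 and 6.18 CPM with GB2. The groups did not overlap and GB2 tumor 2 was again the lowest of its group. The log2 fold change was 1.08 ± 0.27, or 2.12-fold. Nos3 shares 294 bases with the antisense gene Atg9b, at 1.08 to 2.55 CPM. The library kit kept strand, but the strand setting of the counting was not given in the sources used here.

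The angiotensin genes had differences of opposite sign. Ace (ENSMUSG00000020681, chr11:105858771-105880790), the enzyme that makes angiotensin II and degrades bradykinin, was at 2.60, 2.57 and 2.52 CPM with PBS and at 6.69, 4.98 and 7.12 CPM with GB2. The PBS tumors were almost equal and all GB2 tumors lay above them, with a log2 fold change of 1.29 ± 0.26, or 2.44-fold. Agtr1a (ENSMUSG00000049115, chr13:30520424-30566850), the main receptor for angiotensin II on smooth muscle, was at 1.03, 1.08 and 1.16 CPM with PBS and at 1.14, 0.914 and 0.800 CPM with GB2. These groups overlapped, and the log2 fold change was -0.19 ± 0.34. The Agtr1a value is uncertain, because the gene shares 6825 bases on the same strand with Gm48161, at 5.52 to 11.0 CPM, and the counting could have split their reads.

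Both prostacyclin genes were among the lowest of the set. Ptgis (ENSMUSG00000017969, chr2:167033725-167082524), the synthase that makes prostacyclin, had 11, 16 and 0 estimated counts with PBS and 67, 25 and 51 with GB2. Its PBS values thus rested on at most 4 read pairs per tumor. For the 0 no read pair was seen, and a true level of up to about 3 expected read pairs is not excluded. In CPM these were 0.186, 0.227 and 0 against 0.798, 0.301 and 0.600, and GB2 tumor 2 lay close to PBS tumor 2. The fitted log2 fold change of 2.03 ± 1.07 had the largest error of the 10 genes and ran from 1.45 without PBS tumor 3 to 2.62 without PBS tumor 2. Ptgir (ENSMUSG00000043017, chr7:16640415-16644830), the prostacyclin receptor of smooth muscle and platelets, was at 0.423, 0.781 and 0.410 CPM with PBS and at 1.64, 1.30 and 1.58 CPM with GB2. Here the groups were clearly apart, with a log2 fold change of 1.48 ± 0.41, or 2.79-fold.

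The haemostasis genes also had differences of opposite sign. Thbd (ENSMUSG00000074743, chr2:148246386-148250108), the thrombomodulin of the endothelial surface, was at 1.44, 0.738 and 1.15 CPM with PBS and at 3.95, 2.96 and 3.06 CPM with GB2. Every GB2 tumor exceeded the highest PBS tumor, with a log2 fold change of 1.59 ± 0.36, or 3.00-fold. Vwf (ENSMUSG00000001930, chr6:125523737-125663642), stored in endothelial granules and in platelets, was at 17.0, 19.7 and 7.60 CPM with PBS and at 9.49, 8.97 and 13.3 CPM with GB2. The lowest of the 6 was PBS tumor 3 and the other PBS tumors were the highest, so the GB2 values fell within the PBS range. The log2 fold change was -0.48 ± 0.37, and it ran from -0.79 without PBS tumor 3 to -0.21 without PBS tumor 2. Platelet and megakaryocyte markers were low in both groups, with summed levels of 3.00 to 6.80 CPM with PBS and 4.24 to 6.65 CPM with GB2. Their log2 fold changes had a median of -0.11, with 2 of 5 tested genes positive and 3 negative, and 0 of 5 were past an unadjusted p of 0.05, against 6.94% of all genes. Pf4 was at 1.02 ± 0.55, Itga2b at -0.24 ± 0.32 and Gp9 at -0.31 ± 1.38 on the log2 scale, each with overlapping groups.

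Among the GB2 tumors, GB2 tumor 2 had the lowest CPM in 9 of 10 genes and in 32.5% of all genes tested, and GB2 tumor 1 the highest in 7 and in 31% of all genes. GB2 tumor 2 was also the lowest of its group in the geometric mean of 16 endothelial markers, at 14.6 CPM against 15.2 and 15.5. So was its fibroblast marker sum, at 959 against 1142 and 1339 CPM, and its macrophage sum, at 245 against 250.5 and 343 CPM. The endothelial sum was instead lowest in GB2 tumor 3, at 432 CPM against 473 and 460.5. The part of these markers in the order of the tumors was not tested. The exception among the 10 genes was Agtr1a, lowest in GB2 tumor 3. Among the PBS tumors the order was mixed, with PBS tumor 3 the lowest in 5 genes and PBS tumor 2 the highest in 5. Leaving out 1 tumor at a time gave log2 fold changes from 1.43 to 1.77 for Ednra, 0.98 to 1.20 for Nos3 and 1.19 to 1.43 for Ace. They ran from 1.32 to 1.85 for Ptgir, 1.37 to 1.83 for Thbd and -0.35 to -0.08 for Agtr1a, so that no gene changed sign.

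Levels between genes were compared per transcript length, in FPKM. In the PBS tumors Vwf led with 0.848 ± 0.365 (SD, n = 3), followed by Ednrb at 0.752 ± 0.133 and Nos3 at 0.629 ± 0.0621, and these neighbours overlapped in their ranges. Ace at 0.447 ± 0.0257 was below Nos3 and above Agtr1a at 0.361 ± 0.0451 without overlap. Thbd, Edn1, Ednra and Ptgir followed from 0.272 to 0.148, each overlapping the next, and Ptgis was the lowest at 0.0472 ± 0.0426. In the GB2 tumors Ednrb stood first at 2.47 ± 0.377, above the range of Nos3 at 1.42 ± 0.250. From Nos3 through Ace at 1.16 ± 0.233, Thbd at 0.875 ± 0.157, Vwf at 0.646 ± 0.154 and Edn1 at 0.623 ± 0.233 to Ednra at 0.588 ± 0.0773 each gene overlapped the next. Ptgir at 0.442 ± 0.0619, Agtr1a at 0.334 ± 0.0648 and Ptgis at 0.213 ± 0.102 closed the order, with Ptgir below the range of Ednra. Vwf thus stood first with PBS and the fifth with GB2, and the receptor Ednrb was above its ligand in both.

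**Figure D3:**
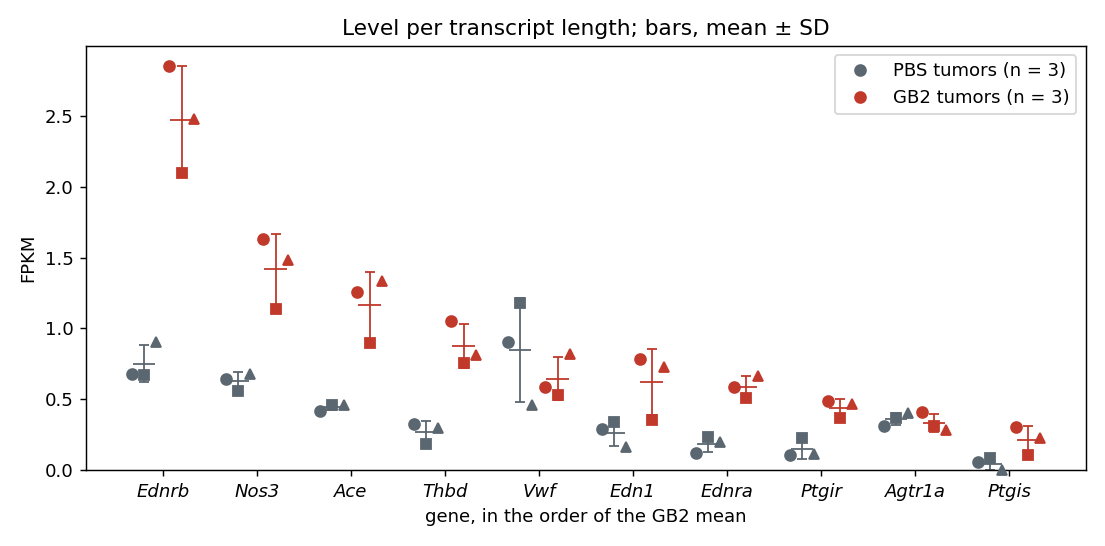
FPKM of each gene in each tumor, in the order of the GB2 mean, grey for PBS and red for GB2, with tumors 1, 2 and 3 as circle, square and triangle and bars of mean ± SD. Ednrb is highest in GB2 tumors with a mean of 2.47, and Vwf highest in PBS tumors with a mean of 0.848.

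Because the genes had been chosen for vascular function, marker genes of the cells in the tumor were read in the same fit. All 16 endothelial markers had positive log2 fold changes with a median of 0.90, where 9475 of all 19602 genes tested were positive. Of the 16, 7 were past an unadjusted p of 0.05 with a 2-fold change (3.74% of all genes tested). Every GB2 tumor was above every PBS tumor for 15 of them (8.61% of all genes). Pecam1, an adhesion protein of endothelial junctions, was at 13.4, 15.1 and 15.6 CPM with PBS and 38.1, 34.3 and 39.2 CPM with GB2. The edgeR log2 fold change of Pecam1 was 1.34 ± 0.17 with an adjusted p of 0.186, that of the growth factor receptor Kdr 1.44 ± 0.20 (adjusted p 0.186) and that of the angiopoietin receptor Tek 1.69 ± 0.39 (adjusted p 0.276). None of the 16 passed the adjusted threshold. The endothelial marker with the largest counts, Eng, ran from 102 to 207 CPM with PBS and 171 to 216 with GB2 and overlapped.

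Markers of other cells of the tumor were read in the same way, and none passed the adjusted threshold. All 8 fibroblast markers were past the unadjusted threshold with a 2-fold change on the higher side, again against 3.74% of all genes, with a median log2 fold change of 1.50. Their summed CPM ran from 279 to 514 with PBS and 959 to 1339 with GB2. The collagen gene Col3a1 had a log2 fold change of 1.64 ± 0.23, the matrix proteoglycan Dcn 1.55 ± 0.23 and the growth factor receptor Pdgfra 1.93 ± 0.30, each with an edgeR adjusted p of 0.186. All 8 macrophage markers were likewise past it with a median of 1.94, and their sums ran from 61.8 to 86.9 with PBS and 245 to 343 with GB2. The lysozyme gene Lyz2 had a log2 fold change of 2.11 ± 0.20 (edgeR adjusted p 0.166), Adgre1, which encodes F4/80, 2.55 ± 0.43 (0.190) and the mannose receptor Mrc1 1.95 ± 0.39 (0.234). Of the 12 pericyte and smooth muscle markers 2 were past it, Des at 1.21 ± 0.30 and Pdgfrb at 1.11 ± 0.37 on the log2 scale, and the median was 0.43. Every GB2 tumor was above every PBS tumor for 5 of the 12, Des, Pdgfrb, Abcc9, Notch3 and Rgs5 (8.61% of all genes). Abcc9, a channel subunit of pericytes, was at 0.78 ± 0.29. The contractile smooth muscle genes Acta2 at 12.2 to 29.6 CPM with PBS and 19.9 to 33.4 CPM with GB2, and Myh11 at 2.40 to 4.61 and 3.02 to 4.50 CPM, overlapped. Markers of tissue around the tumor were read too. All 5 skeletal muscle markers had positive log2 fold changes with a median of 0.58, again against 9475 of all 19602 genes tested. Of these 5, 0 were past the 2-fold threshold, and in 4 every GB2 tumor was above the PBS tumors (8.61% of all genes). Their sums ran from 77.2 to 136 CPM with PBS and 140 to 183 CPM with GB2, and the muscle actin Acta1 had a log2 fold change of 0.95 ± 0.22 (edgeR adjusted p 0.276). Tnnt3 and Ckm, also of muscle, were at 0.89 ± 0.26 and 0.58 ± 0.26. All 4 keratinocyte markers were positive with a median of 0.72, against the same 9475 of 19602 genes. However, 0 of 4 were past an unadjusted p of 0.05 (6.94% of all genes) and all 4 overlapped between the groups. Their sums ran from 19.0 to 80.6 CPM with PBS and 64.3 to 113 CPM with GB2, and the keratins Krt14, Krt1 and Krt5 were at 1.29 ± 0.62, 0.53 ± 0.35 and 0.91 ± 0.64 on the log2 scale. The 4 adipocyte markers had a median of 0.70, with 0 of 4 past an unadjusted p of 0.05 (6.94% of all genes). In 1 of 4, Plin1 at 0.83 ± 0.77, the groups were apart (8.61% of all genes), with PBS tumor 3 at 0.184 CPM. Cidec at 0.58 ± 0.67 and Adipoq at 0.69 ± 0.87 overlapped. The adipocyte sums were 10.2, 10.3 and 0.764 CPM with PBS and 12.8, 10.9 and 10.8 CPM with GB2, so that only PBS tumor 3 lay far from the others. Of the 3 epithelial markers tested 1 was past an unadjusted p of 0.05 with a 2-fold change, against 3.74% of all genes. It was Epcam at 1.64 ± 0.52, with groups apart at the low levels given above. Krt18 at 0.28 ± 0.77 and Krt8 at 0.41 ± 1.26 were low too and overlapped. The part of these cell types in the values of the vascular tone genes was not tested.

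**Figure D4:**
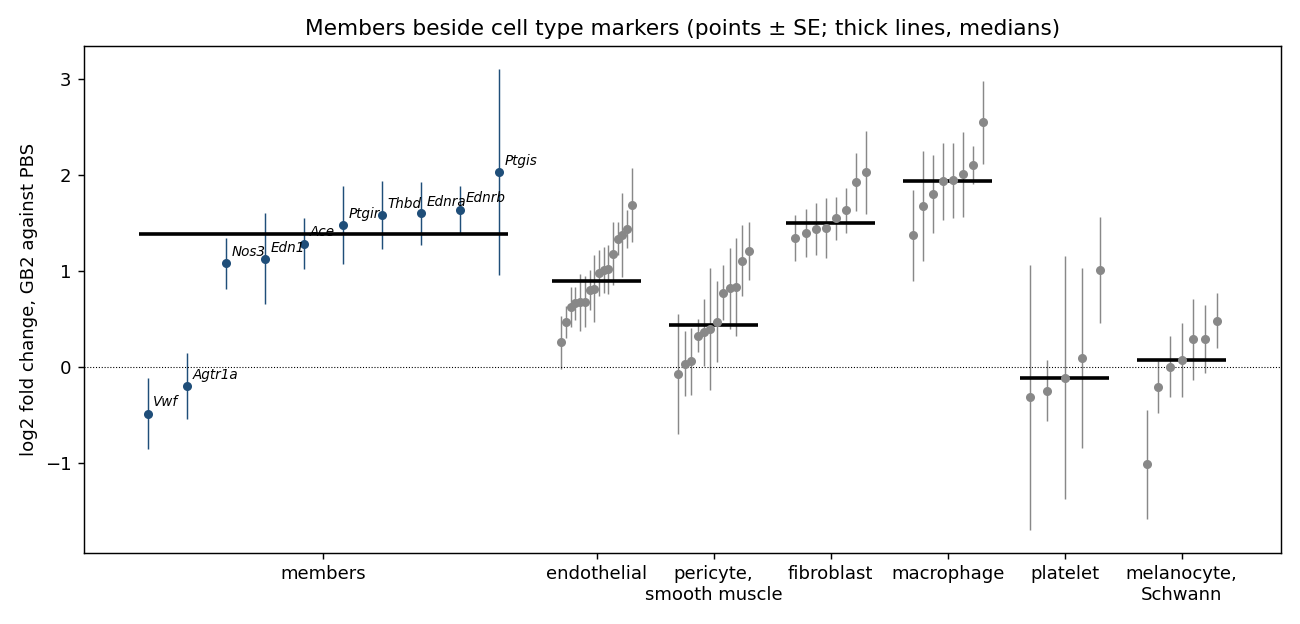
Log2 fold change of GB2 against PBS tumors for the 10 genes (blue, named) and for markers of cell types (grey), with bars of ± 1 SE and thick lines at the medians. The 10 genes have a median of 1.38, endothelial markers 0.90, pericyte and smooth muscle markers 0.43, fibroblast markers 1.50 and macrophage markers 1.94.

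The genes were then expressed relative to the endothelial markers of the same tumor. The geometric mean of the 16 markers was 7.29, 7.96 and 7.88 CPM with PBS and 15.2, 14.6 and 15.5 CPM with GB2, so this denominator itself was about as different as Nos3. As a percentage of it, Nos3 was at 42.9, 30.5 and 36.8 with PBS and 44.4, 34.1 and 39.9 with GB2, with a log2 ratio of 0.10 and overlapping groups. Edn1 (log2 ratio 0.15), Ace (0.31), Ptgir (0.52) and Ptgis (1.05) overlapped as well. Both endothelin receptors and Thbd kept every GB2 tumor above every PBS tumor on this scale, as 1.31% of all genes tested did. Ednra was at 10.7, 16.6 and 14.5% with PBS and 21.3, 20.3 and 23.8% with GB2, Ednrb at 46.4, 37.6 and 50.5% and 80.4, 64.4 and 69.0%. For Thbd the margin was slight, with 19.7% in PBS tumor 1 and 19.8% in GB2 tumor 3.

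Vwf and Agtr1a were lower in every GB2 tumor on this scale, but so were 62.7% of all genes tested, since the denominator was larger in the GB2 tumors. Vwf was at 234, 248 and 96.4% of the endothelial mean with PBS and at 62.4, 61.7 and 85.9% with GB2, a log2 ratio of -1.46. Agtr1a was at 14.2, 13.6 and 14.7% and at 7.51, 6.28 and 5.17%, a log2 ratio of -1.16.

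**Figure D5:**
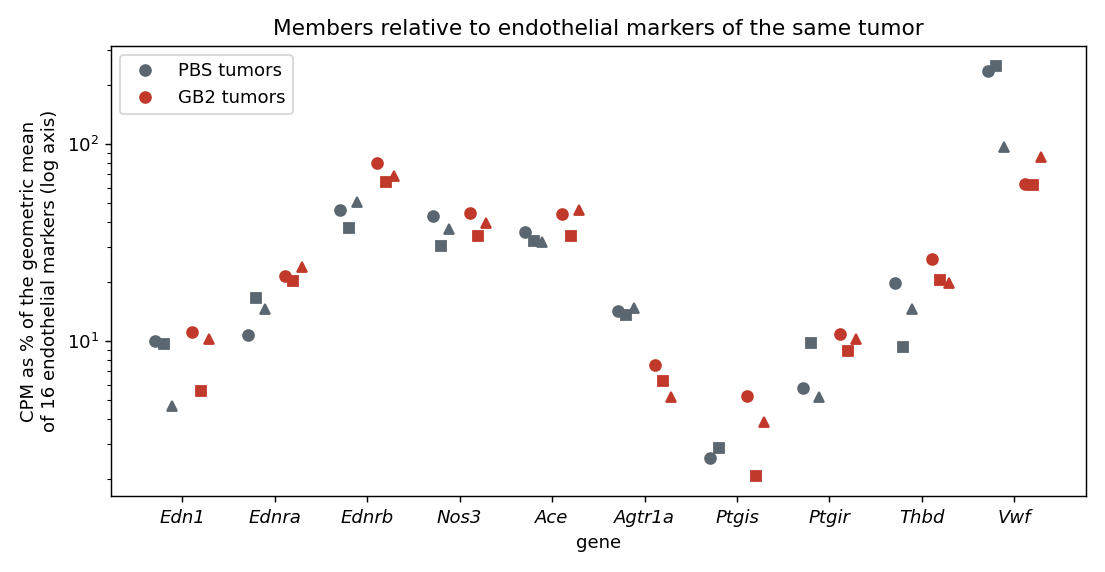
CPM of each gene as a percentage of the geometric mean of 16 endothelial markers of the same tumor, on a log axis, grey for PBS and red for GB2; Ptgis in PBS tumor 3, at 0, is not drawn. Ednra, Ednrb and Thbd are above in every GB2 tumor, Agtr1a and Vwf below, and the other 5 genes overlap.

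The other genes of these pathways were read from lists chosen for function. Of 53 listed genes 51 were in the table and 44 were tested. Positive log2 fold changes were found for 32 of the 44, and for 9475 of all 19602 genes tested. At that unadjusted threshold 8 were on the higher side and 1 on the lower, where the shares of all genes tested were 3.74% and 0.918%. Every GB2 tumor was above the PBS tumors for 14 genes and below them for 1, against 8.61% and 6.68% of all genes. The 9 genes past the unadjusted threshold became 4 without PBS tumor 3, 6 without any 1 GB2 tumor and 9 without PBS tumor 1 or 2. By edgeR's adjusted p none of the 44 was called.

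Around the endothelin peptides the processing enzymes were measured. Ece1, which cuts the precursor into active endothelin, was at 5.53, 7.42 and 6.05 CPM with PBS and 10.5, 11.4 and 11.5 CPM with GB2. Its groups were apart, with a log2 fold change of 0.81 ± 0.22 and an edgeR adjusted p of 0.374. Ece2, a related enzyme, was the 1 gene on the lower side, at 1.71, 2.37 and 1.54 CPM with PBS and 0.536, 0.156 and 0.141 CPM with GB2 (log2 fold change -2.75 ± 0.61, edgeR adjusted p 0.267). In the GB2 tumors Ece2 rested on 11, 3 and 3 read pairs. Ece2 overlaps Gm49333 on the same strand by 16093 bases, so its count is uncertain. Gm49333 was at 1.64, 0 and 0 CPM with PBS and 0.858, 0 and 2.61 CPM with GB2, a log2 fold change of the opposite sign at 1.09. Mme, the neprilysin that degrades vasoactive peptides, had a log2 fold change of 0.20 ± 0.53. The ligand Edn3 had counts only in GB2 tumor 1, at 0.0953 CPM.

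In the renin-angiotensin list 4 of 8 genes in the table were tested and none was past the unadjusted threshold. Of all genes tested, 3.74% were past it on the higher side and 0.918% on the lower. Renin itself, Ren1, was at 0 in all 6 tumors. No read pair was seen, and a true level of up to about 3 expected read pairs in each is not excluded. Enpep, which degrades angiotensin II, had the smallest p with a log2 fold change of 0.69 ± 0.40. The precursor Agt was at 15.2 to 24.4 CPM with PBS and 9.32 to 21.6 CPM with GB2, overlapping, with a log2 fold change of -0.44 ± 0.34. Lnpep, a peptidase that binds angiotensin IV, stood at 99.1 to 120 and 99.7 to 100.5 CPM.

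In the nitric oxide and cGMP list 1 of 11 tested genes was past the unadjusted threshold on the higher side, against 3.74% of all genes tested. It was Nos2, the inducible synthase of activated macrophages, at 0.507, 2.23 and 0.467 CPM with PBS and 3.62, 2.48 and 3.22 CPM with GB2. PBS tumor 2 came close to GB2 tumor 2, and the log2 fold change was 1.54 ± 0.64 (edgeR adjusted p 0.704). Gucy1b1, a subunit of the nitric oxide receptor, had a log2 fold change of 0.90 ± 0.43 and Cav1, the caveolar protein that holds Nos3 inactive, one of 0.40 ± 0.19.

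In the prostanoid list 2 of 4 genes were past it on the higher side, against 3.74% of all genes tested. Tbxas1, which makes the vasoconstrictor thromboxane and is abundant in macrophages, was at 1.27, 0.880 and 0.382 CPM with PBS and 2.68, 2.18 and 2.67 CPM with GB2, a log2 fold change of 1.57 ± 0.47 (edgeR adjusted p 0.448). Ptgs2, the inducible cyclooxygenase upstream of both prostanoids, had a log2 fold change of 1.39 ± 0.52 (edgeR adjusted p 0.653). The thromboxane receptor Tbxa2r overlapped between the groups, with 0.32 ± 0.52.

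In the coagulation and fibrinolysis list 4 of 12 genes were past it on the higher side, against 3.74% of all genes tested. Pdpn, a platelet-activating protein of lymphatic endothelium and fibroblasts, was at 2.44, 2.09 and 3.03 CPM with PBS and 7.79, 8.21 and 4.74 CPM with GB2, a log2 fold change of 1.46 ± 0.32 (edgeR adjusted p 0.262). Plau, the urokinase that activates plasminogen, had a log2 fold change of 1.16 ± 0.36 (edgeR adjusted p 0.492). Selp, the P-selectin stored with Vwf in endothelial granules, was at 0, 0.411 and 0.226 CPM with PBS and 1.17, 0.830 and 1.58 CPM with GB2. Its PBS values rested on 0, 7 and 4 read pairs, and the log2 fold change was 2.46 ± 1.01 (edgeR adjusted p 0.70). Selp thus had separate groups where Vwf overlapped, and the difference between these genes was not tested.

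In the list of other vasoactive peptides and receptors 1 of 10 tested genes was past it on the higher side, against 3.74% of all genes tested. Aplnr, the apelin receptor of endothelial cells, was at 1.12, 1.53 and 1.29 CPM with PBS and 9.10, 5.01 and 8.55 CPM with GB2. GB2 tumor 2 was the lowest of its group here too, and all GB2 tumors were far above the PBS tumors. The log2 fold change of 2.52 ± 0.34 had an edgeR adjusted p of 0.186. Its ligand Apln overlapped between the groups, at 8.40 to 14.3 and 13.5 to 20.4 CPM. The natriuretic peptide receptor Npr1 had a log2 fold change of 0.55 ± 0.22 and Ramp3, a partner of the adrenomedullin receptor, one of 0.84 ± 0.36.

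The annotation in the table gave what the 10 genes shared by function. The GO term vasoconstriction held 5 of them (Edn1, Ednra, Ednrb, Ace and Agtr1a) among 20 genes in the table, or 0.0589%. Regulation of blood pressure held the same 5 genes among 71. The term response to lipopolysaccharide held 7 (Edn1, Ednra, Ednrb, Nos3, Ace, Ptgir and Thbd) among 178 genes, or 0.524%. Agtr1a, Ptgis and Vwf lacked the term. The genes had been chosen for vascular function and for their values, so no enrichment was tested.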

How the data were processed

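RNA-seq of 6 tumors labelled MC38, 3 PBS and 3 GB2, was analysed. The authors deposited 1 table of 33965 genes with estimated counts and FPKM for each tumor. As deposited, the counts were estimates with steps of roughly 4 per sequenced read pair. FPKM, also from the authors, divides by transcript length and library size. The submitters' processing notes name cutadapt 1.9, HISAT2 2.2.1, StringTie 2.1.6, edgeR, DESeq2 and mm10, with no roles. Of 31999 gene IDs shared with a GRCm38 annotation, 595 (1.86%) had the same position, so printed gene positions are those of the table, whose build was not established, and start regions are from RefSeq GRCm38.p6. All per-sample columns were used.

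Estimated counts were rounded and analysed in R 4.3.3 with edgeR 4.0.16: filterByExpr with a minimum count of 10 kept 19602 genes, including all 10 described here, TMM factors scaled the libraries, and the quasi-likelihood test compared GB2 with PBS with Benjamini-Hochberg adjustment over all genes tested. CPM uses the TMM-scaled totals. Calls needed a 2-fold change at an adjusted p below 0.05. The script was tested on simulated data. Tumors of a group varied by a biological coefficient of 40.5%, from the common dispersion. Alternatives were DESeq2 1.42.0, other size factors, no filter, counts divided by 4, limma 3.58.1 on log2(FPKM + 1) or log2(FPKM + 0.1) for genes at 0.1 FPKM in 3 tumors, a robust fit, the replicate number as a block, and leaving out each tumor. The scale relative to endothelial markers and the lists of lineage genes were added after seeing the data. The 10 genes, the other pathway genes and the marker lists were chosen with earlier results of these data known. All 10 genes are named, and in each other list the called genes and those with the 3 smallest p-values, while further genes were named after their values were seen. One gene that this rule names is not reported here.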

Additional observations from a re-analysis of the deposited data

How the results depend on the processing

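The log2 fold changes of the 10 genes kept their sign in each alternative that gave a value, with Ptgis not fitted when counts were divided by 4. With limma on log2(FPKM + 1) 0 of the 10 genes passed an unadjusted p of 0.05 with a 2-fold change, and 3 of the other pathway genes did, against 7 and 9 by edgeR, since a pseudocount of 1 exceeds most of these FPKM values. With a pseudocount of 0.1 the numbers were 7 and 9, but Edn1 (log2 fold change 0.97) was not among these 7 and Ptgis was. DESeq2 called 373 genes across the table where edgeR called 0, and the cause was not tested. The other alternatives called 0. Leaving out 1 tumor at a time left 5 to 7 of the 10 genes, 4 to 9 other pathway genes (4 without PBS tumor 3) and 0 genes called. Edn1 was lost without any 1 of the PBS tumors, GB2 tumor 1 or GB2 tumor 3, and Nos3 without PBS tumor 2 or GB2 tumor 1. With the replicate block 6 of the 10 genes (without Edn1), 10 other pathway genes and 0 called genes were found. No pairing of same-numbered tumors was given. Their deviations from the group means correlated at 0.03, 0.15 and -0.24, which cannot settle whether they were paired, with 3 tumors per group. Depth limits Ptgis most, with at most 4 read pairs per PBS tumor.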
